A study of Mus musculus with 8 samples.

Results

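The transcripts described here are isoforms that leave the same transcription start site of a protein-coding locus and then differ in their exons or in where they end. They were taken from the authors' merged annotation as groups of 2 or more transcripts that match a reference transcript, carry the same start-site identifier and lie in a locus with a coding-sequence identifier. Each isoform also had to reach 1 FPKM in at least 4 of the 8 libraries, where FPKM counts fragments per kilobase of a transcript and relative to all fragments mapped. The groups were thus chosen by their FPKM level in these libraries. These rules gave 2170 groups with 4917 isoforms in 2099 loci, out of 89208 transcripts with a value and 3055 start-site groups of any kind that passed the same level filter. Before the level filter, 10779 start sites held 29874 such isoforms. The rule did not use the shares of isoforms within a group, so the shares could be compared between conditions, with the exception given below.

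The cells were macrophages that had been differentiated in culture from the bone marrow of C57BL/6 mice. RNA was sequenced from 4 libraries of cells given interleukin-4 (IL-4) and 4 libraries of untreated cells, with ribosomal RNA removed before library preparation. The dose and length of the treatment and the age of the mice are not stated in these sources. The labels do not say whether each library came from its own animal, and the spread behind each p-value may therefore be technical in part. Replicate 4 of both groups differed in its chromosome Y transcripts, as given below. The libraries of a group thus do not all come from the same animal. Macrophage markers were not analysed here, because transcripts are listed under UCSC identifiers and 0 of the 4699 identifiers of these isoforms occurred in the reference tables at hand. Groups are therefore named by the authors' start-site identifier, with mm9 position and exon structure. The RNA comes from bulk cultures, in which fewer cells of a type and less RNA per cell cannot be told apart.

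Alternative splicing joins different sets of exons of one primary transcript. A cassette exon is either kept or skipped as a unit, mutually exclusive exons replace each other, an alternative donor or acceptor moves one edge of an exon, and a retained intron stays in the mature RNA. Alternative last exons and alternative cleavage sites within one last exon change where the RNA ends, and with it the carboxyl terminus of the protein or the length of the 3′ untranslated region. IL-4 is a cytokine of type 2 immunity that signals through its receptor and the transcription factor STAT6, and it drives macrophages into what is known as alternative activation. The isoforms of a group carry one start-site identifier, which the authors' annotation also gives to starts that lie some bases apart.

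Total counts per library ran from 23969227 to 27783417 with IL-4 and from 23071022 to 26682884 in untreated cells. One library of each group, replicate 4, stood apart from the other 3 by its transcripts of chromosome Y, which summed to 38.8 FPKM in the IL-4 library and 43.2 FPKM in the untreated library. In the other libraries they summed to at most 0.0175 FPKM with IL-4 and 0.0755 FPKM without. Since both groups hold 1 such library, it does not follow the treatment, and counts of calls are also given without both.

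For most start sites no share shift was called, and the typical share difference was about as large as the SD between libraries. The isoform with the largest share of its group had a median share of 73.8% with IL-4 and 73.7% in untreated cells. The SD of an isoform's share over 4 libraries had a median of 2.96 percentage points with IL-4 and 3.21 points in untreated cells, and the largest mean share difference within a group had a median of 2.94 points. A share shift was called in 85 of 2170 groups (limma on the log2 ratio between an isoform and the remainder of its group, two-sided, Benjamini-Hochberg adjusted p under 0.05 over all 3055 groups), which is 3.92%. The background over all start-site groups was 4.09%, and that over the 885 groups outside these was 4.52%, so reference isoforms of coding loci were called about as often as any others. At an unadjusted p under 0.05 there were 459 groups, or 21.2%, against 21% over all groups. That is more than such a threshold passes when no group differs. A missing call therefore does not show that the proportions of a group were kept.

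The titles number the libraries of each group, and same-numbered libraries were taken as pairs, although the titles do not say so. With the replicate as a block 13 of the 2170 groups were called. Without both replicate 4 libraries 12 were called. Leaving out single libraries gave between 41 calls, without untreated replicate 4, and 84 calls, without untreated replicate 1. The count also fell by over 1.5 times without untreated replicate 2 (47 calls) or 3 (50 calls) and without IL-4 replicate 2 (47 calls), 3 (49 calls) or 4 (51 calls). The individual groups below are given with what these fits did to them.

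In 132 of the 2170 groups an isoform reached 1 FPKM in libraries of 1 condition only, 66 isoforms with IL-4 only and 95 in untreated cells only. Such isoforms entered through the condition where they are high and had to differ in level. That can favour a difference in share but does not force one, and 22 of these 132 groups were called. Of the other 2038 groups, 63 were called, or 3.09%. At the threshold of 1 FPKM, the lowest isoform inside had a 4th-highest value of 1.00029 FPKM and the highest one outside had 0.999407 FPKM. Between 1 and 1.1 FPKM lay 188 isoforms of the groups, and 280 isoforms between 0.9 and 1 FPKM were left out.

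Called shifts ranged from small ones at abundant start sites to near-complete exchanges at weak ones. Among the 85 called groups the largest share difference had a median of 11.2 points, with 47 groups at 10 points or more, 15 at 20 or more, 6 at 30 or more and 18 under 5 points. Over all start-site groups, 2.49% were called with a difference of at least 10 points. Differences of at least 10 points were found in 226 of the 2170 groups, and 179 of these were not called. The shares of at least 1 isoform did not overlap between the 4 IL-4 and the 4 untreated libraries in 82 of the 85 called groups. This was so in 386 of the 2162 groups with defined shares in all libraries, or 17.9%, beside a background of 17.5% over all start-site groups. Calls were more frequent where expression was high: 44 of 724 groups in the upper level class (6.08%), 24 of 723 in the middle class (3.32%) and 17 of 723 in the lower class (2.35%). The median share difference ran the other way, with 1.65 points in the upper, 3.27 points in the middle and 4.67 points in the lower class.

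**Figure D1:**
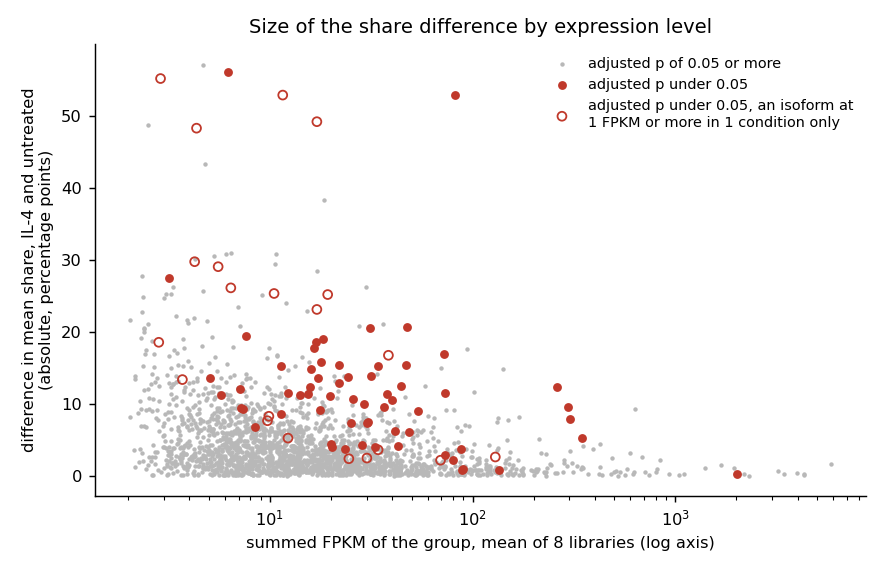
Each point is a start-site group, placed by its summed FPKM (mean of 8 libraries, log axis) and by the largest absolute difference in mean share between IL-4 and untreated libraries, in percentage points. Differences of over 20 points lie mostly at low levels, and called groups of high level have differences of few points; open circles are called groups with an isoform at 1 FPKM or more in 1 condition only.

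The isoform with the highest mean share was a different one with IL-4 and in untreated cells in 144 groups, and 16 of these were called. In all 16 the shares of an isoform did not overlap between the groups of libraries. That held for 82 of the 85 called groups, so it adds little to the call. No background over all start-site groups is given for these exchanges. Among the 128 exchanges that were not called, the median difference was 10.1 points.

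Most of the exon differences could be read from pairs, since 1737 groups held 2 isoforms, 329 held 3, 75 held 4 and 29 held 5 to 9. Calls were made in 65 of the 1737 pairs (3.74%) and in 20 of the 433 larger groups (4.62%). The commonest class, named alternative last exons, was any difference after the last shared splice site, in 522 pairs. It was followed by a cassette exon in 290 and several differences in 209. A difference before the first shared splice site, named alternative first exons, was found in 202. An alternative acceptor was the difference in 196 pairs and an alternative donor in 73. In a further 166 pairs all splice sites were the same and the isoforms differed in their end. These 166 are not spliced differently. In 165 of them the more distal end belongs to a transcript that the authors' assembly added beside a reference transcript with the same introns. Rarer classes were retained introns between shared splice sites (22 pairs), pairs with no splice site in common (20), several skipped exons (17), mutually exclusive exons (10) and complex ones (10).

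Alternative last exons were the class with most calls, 21 of 522 pairs, or 4.02%. The class also holds pairs with the same end, since it takes any difference after the last shared splice site. In 473 of the pairs the ends differed, and they lay a median of 8139 nt apart. Direction was mixed: among called pairs with different ends, the distal form rose in 11 and fell in 9. Over all 473 pairs with different ends the distal form had the higher mean share with IL-4 in 283 and the lower one in 189. The median share of the distal form ran from 73.9% to 76.6% over the IL-4 libraries and from 75.2% to 76.3% over the untreated libraries. The ranges overlapped, and the IL-4 library was lower in 3 of the 4 same-numbered pairs.

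TSS1475 on chromosome 1 (mm9, 52220294 to 52290076, minus strand) has a long isoform of 18 exons, TCONS_00002843, and a short one of 15 exons, TCONS_00002848, whose ends lie 21831 nt apart and which carry different coding-sequence identifiers. The long isoform made up 59.7%, 62%, 52.9% and 55.9% of the group in the IL-4 libraries, against 41.8%, 37%, 36.9% and 32.9% in the untreated libraries. Every IL-4 library lay above every untreated one, with means of 57.6% ± 4.02 and 37.1% ± 3.64 (SD, n = 4 each, adjusted p = 0.00877 by limma, 0.0529 with the replicate block). The forms moved in opposite directions: the long one rose by 0.78 ± 0.07 (log2 FPKM, SE) and the short one fell by 0.42 on that scale (SE 0.11). The counts of the whole locus differed by a log2 fold change of 0.16 ± 0.08, which was not past the threshold (edgeR adjusted p = 0.107). At this locus, then, the proportion of the ends shifted while the total was not called.

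TSS17665 on chromosome 16 (mm9, 96223155 to 96304035, minus strand) combines a full isoform of 41 exons, TCONS_00031684, with one of 5 exons, TCONS_00031688, that ends 65120 nt earlier. The full isoform had 6.2, 6.05, 6.89 and 6.58 FPKM with IL-4, against 2.72, 3.1, 3.56 and 3.26 FPKM in untreated cells. The short isoform had 2.55, 2.62, 2.77 and 2.77 FPKM with IL-4 and 3.26, 3.04, 2.78 and 2.92 FPKM in untreated cells. Only the full isoform passed the level test, at a log2 difference of 1.01 ± 0.1, and its share was 70.6% ± 0.679 with IL-4 and 51.2% ± 4.49 in untreated cells (SD, n = 4 each, limma adjusted p = 0.00567, 0.0529 with the block). The locus rose by 1.18 ± 0.07 on the log2 scale of counts. The 5-exon form differed in level by -0.16 ± 0.09 (log2 FPKM).

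TSS49006 on chromosome X (mm9, 35754538 to 35809632, minus strand) was the most abundant called group with a change of over 10 points. Its isoforms share 8 exons and use one of 3 last exons, each with its own coding-sequence identifier. The middle end, TCONS_00087800, had 206, 211, 216 and 204 FPKM with IL-4, against 125, 117, 115 and 129 FPKM in untreated cells. The proximal end, TCONS_00087801, had between 88.5 and 105 FPKM with IL-4 and between 88.8 and 98.3 FPKM in untreated cells, overlapping ranges. The share of the middle end was 68.4% ± 1.88 with IL-4 and 56% ± 2.15 in untreated cells (SD, n = 4 each, limma adjusted p = 0.0172). The call was lost with the replicate block (adjusted p = 0.115) and in 5 of the 8 fits that left out a library (highest adjusted p = 0.0605). The most distal end, TCONS_00087799, stayed under 1% of the group in every library.

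TSS2344 on chromosome 1 (mm9, 175677425 to 175843258, minus strand) has 3 isoforms, and those that differed most end 149061 nt apart. The distal 10-exon isoform TCONS_00004504 held 50.9%, 56.8%, 59.4% and 49.6% with IL-4, against 26.3%, 34.8%, 28.3% and 26.7% in untreated cells. These shares do not overlap (difference of means 25.1 points, limma adjusted p = 0.00877, 0.0529 with the block). The proximal 7-exon isoform TCONS_00004508 fell by 1.83 on the log2 FPKM scale (SE 0.19), the distal one differed by -0.29 ± 0.2, and the locus fell by 0.83 in log2 counts (SE 0.15). A minor isoform of the group, TCONS_00004509, was at 1 FPKM or more in untreated libraries only.

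TSS7967 on chromosome 11 (mm9, 97850894 to 97857487, minus strand), with 3 isoforms, changed its main one. A 3-exon isoform with the proximal end, TCONS_00014608, held 95.6%, 92.6%, 89.5% and 96.8% with IL-4, against 36.9%, 50.2%, 35.7% and 40.2% in untreated cells. The 6-exon isoform TCONS_00014606 had 0.475, 0.53, 0.643 and 0.0834 FPKM with IL-4, against 7.67, 5.69, 7.92 and 7.8 FPKM in untreated cells. Both 6-exon isoforms were under 1 FPKM in all IL-4 libraries, so they entered through the untreated libraries. The 3-exon form differed in level by 0.31 ± 0.19 (log2 FPKM), not past the threshold, while the 6-exon form fell by 3.95 on that scale (SE 0.41) and the locus by 1.75 in log2 counts (SE 0.16). The share call held with the block (limma adjusted p = 0.0402) and in each fit that left out a library.

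TSS35414 on chromosome 5 (mm9, 148373772 to 148537564, minus strand) belongs to a strongly induced locus, whose counts rose by 5.11 ± 0.26 on the log2 scale. The distal 30-exon isoform TCONS_00064122 had 8.45 to 12.5 FPKM over the IL-4 libraries and 0.276 to 0.492 FPKM over the untreated libraries. The proximal 13-exon isoform TCONS_00064125 had 7.45 to 10.1 FPKM over the IL-4 libraries and 0.0329 to 0.171 FPKM over the untreated libraries. The distal share was 54.9% ± 1.27 with IL-4 and 80.2% ± 6.55 in untreated cells (SD, n = 4 each, limma adjusted p = 0.00638). The untreated shares rest on a summed level of 0.493 FPKM, the isoforms entered through the IL-4 libraries, and the call was lost at a pseudocount of 1 (adjusted p = 0.707), with diffSplice (0.0613) and with the block (0.0529).

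TSS39766 on chromosome 7 (mm9, 109044929 to 109048057, plus strand) had the largest called difference. Its 6-exon isoform TCONS_00071343 held 60.6%, 59.5%, 68.2% and 60.6% with IL-4, against 0.227%, 1.86%, 22.4% and under 0.01% in untreated cells. The 5-exon isoform TCONS_00071342 keeps the last intron of the other, and its end differs by 5 nt. The pair is in this class because the difference lies after the last shared splice site. TCONS_00071342 had 2.8, 2, 2.12 and 2.57 FPKM with IL-4, against 7.46, 5.9, 5.21 and 4.32 FPKM in untreated cells. The shares do not overlap, although 1 untreated library was far above the other 3 (difference 56.1 points, limma adjusted p = 0.0165). The call was lost with the block (0.0529), without IL-4 replicate 3 (0.0509) and without untreated replicate 4 (0.0524). All exonic bases of the group are shared with a locus on the opposite strand, the sources used here do not say whether the counting used strand, and the locus had near 0 counts in all libraries, so its reads cannot be told apart from those of that locus.

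**Figure D2:**
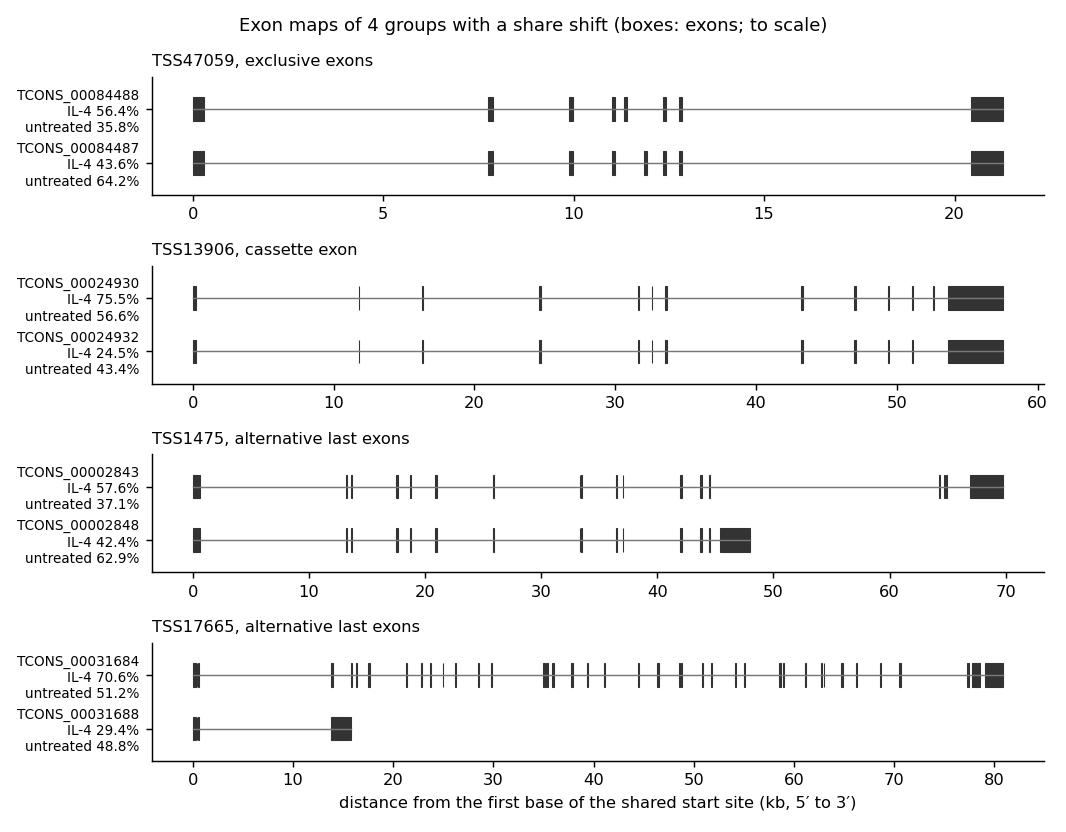
Exon maps of 4 called groups drawn to scale, with distance from the first base of the shared start site in kb on the horizontal axis and boxes for exons; the labels give the mean share of each isoform over 4 IL-4 and 4 untreated libraries. In each map the upper isoform had the larger share with IL-4 than in untreated cells.

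Cassette exons changed in both directions. Calls were made in 9 of 290 pairs, or 3.1%, with inclusion higher with IL-4 in 4 and lower in 5. Over all pairs inclusion had the higher mean share in 131 and the lower one in 158. The exons had a median size of 95.5 nt, and 169 of the 290 were a multiple of 3 nt, the sizes that leave the reading frame as it is. The median share of the inclusion form ran from 54.1% to 55.1% over the IL-4 libraries and from 52.6% to 56.2% over the untreated libraries, and was lower with IL-4 in 2 of the 4 same-numbered pairs.

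TSS13906 on chromosome 14 (mm9, 58451539 to 58509099, minus strand) has a cassette exon of 77 nt, not a multiple of 3, just before the last exon. The form that skips it, TCONS_00024932, held 29.5%, 22.9%, 21% and 24.5% with IL-4, against 47%, 44.6%, 43.7% and 38.4% in untreated cells. Skipping was lower in every IL-4 library than in any untreated one, at 24.5% ± 3.63 and 43.4% ± 3.6 (SD, n = 4 each, limma adjusted p = 0.0091, 0.0529 with the block). The inclusion form TCONS_00024930 had 12.2, 14.8, 15.1 and 13.5 FPKM with IL-4, against 7.84, 11, 11 and 11.6 FPKM in untreated cells. It rose by 0.43 ± 0.13 while the skipping form fell by 0.8 (log2 FPKM, SE 0.11). The fitted log2 fold change of the locus counts was 0.000595, with an SE of 0.08.

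TSS47059 on chromosome 9 (mm9, 66870400 to 66891678, minus strand) is the one called case among the 10 pairs of mutually exclusive exons. Its isoforms have 8 exons each and differ in a single 76-nt exon, and since both alternatives have that size the isoforms are equally long, at 1675 nt. The form with the downstream alternative, TCONS_00084487, had 18.4, 14.1, 13.8 and 17.9 FPKM with IL-4, against 39.8, 37.3, 38.8 and 33.5 FPKM in untreated cells. The form with the upstream alternative, TCONS_00084488, had 19.2, 21.9, 21.8 and 19.7 FPKM with IL-4, against 19.9, 23.2, 20.8 and 19.3 FPKM in untreated cells. The fall of the locus (0.67 lower in log2 counts, SE 0.06) thus stood beside a fall of 1 isoform by 1.22 (log2 FPKM, SE 0.11) and a difference of -0.01 ± 0.08 in the other. The share of the downstream form was 43.6% ± 5.36 with IL-4 and 64.2% ± 2.19 in untreated cells (SD, n = 4 each, limma adjusted p = 0.00934, 0.0529 with the block), and the main isoform changed.

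TSS31301 on chromosome 4 (mm9, 43460596 to 43467498, minus strand) holds 4 isoforms around a 72-nt cassette exon and alternative splice sites. TCONS_00056398 had 2.4, 0.00305, 0.092 and 0.00162 FPKM with IL-4, against 10.3, 16.4, 12.5 and 18.2 FPKM in untreated cells, while TCONS_00056399 held 39.3% ± 0.722 with IL-4 and 31.4% ± 0.691 in untreated cells (SD, n = 4 each). Neither isoform overlapped between the groups of libraries, and the start site was called at a limma adjusted p of 0.0373. The call was lost with the block (0.134) and in 7 of the 8 fits that left out a library (highest adjusted p = 0.113). All its exonic bases are shared with an opposite-strand locus, and its own locus has near 0 counts.

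TSS27760 on chromosome 3 (mm9, 60305174 to 60433670, plus strand) gained an isoform. TCONS_00049814 had 4.82, 3.87, 5.43 and 2.67 FPKM with IL-4 and was under 0.01 FPKM in each untreated library. It includes a 1049-nt second exon and a longer later exon than TCONS_00049815. TCONS_00049816 includes both as well and had 3.68 to 4.43 FPKM over the untreated libraries, so neither exon was absent without IL-4. Unlike TCONS_00049814, TCONS_00049816 has a 54-nt exon and lacks exons of 36 and 95 nt. The other 2 isoforms of the group had overlapping levels, with TCONS_00049815 at 8.72 to 12.4 FPKM over the IL-4 libraries and 8.04 to 13.5 FPKM over the untreated libraries. The share call held with the block (limma adjusted p = 0.0134) and without any single library. It rests on an isoform that entered through the IL-4 libraries, and 95.6% of the exonic bases are shared with an opposite-strand locus, so the reads of the loci cannot be told apart. The counts of the locus fell by 0.77 on the log2 scale (SE 0.09).

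TSS39788 on chromosome 7 (mm9, 109371588 to 109386265, plus strand) also gained one. TCONS_00071392, a 6-exon form that skips the second exon, has 24 nt in place of 175 nt of the next one and has no coding-sequence identifier, had 10.8, 12.3, 17.4 and 9.54 FPKM with IL-4 and was under 0.01 FPKM in each untreated library. The 7-exon form TCONS_00071391 had 12.4, 14.2, 12.9 and 11.1 FPKM with IL-4, against 8.4, 9.39, 9.31 and 8.62 FPKM in untreated cells. Its level rose by 0.49 ± 0.09 (log2 FPKM), and the locus rose by 1.4 ± 0.08 in log2 counts. The shorter form held 49.1% ± 5.53 with IL-4 (SD, n = 4). The call had the smallest p of all groups (limma adjusted p = 1.31e-06, 0.0018 with the block), with the limit that the isoform entered through the IL-4 libraries.

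**Figure D3:**
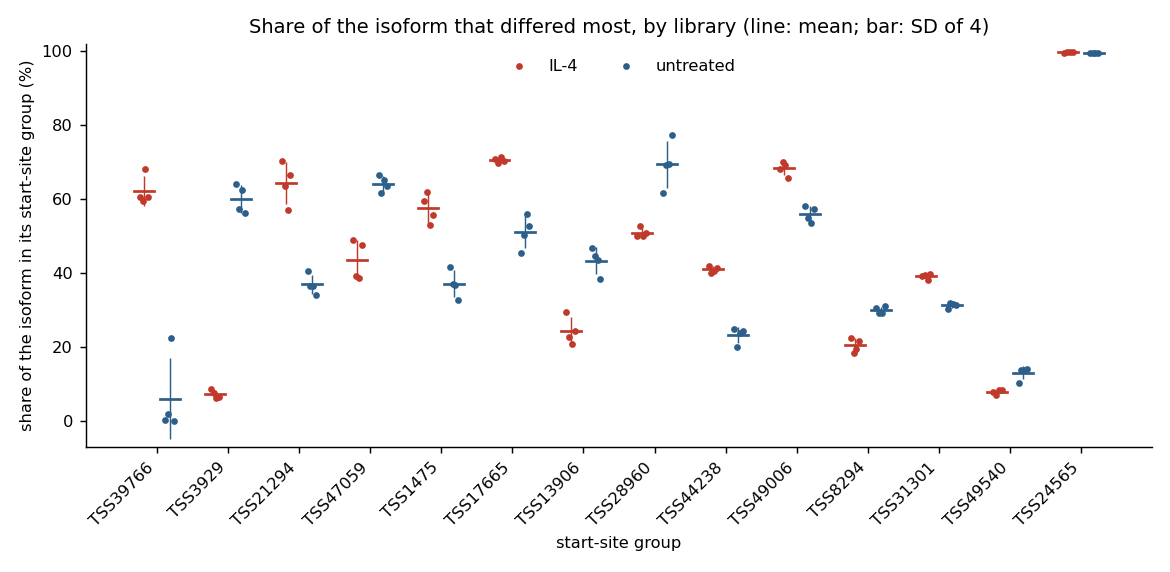
Share of 1 isoform in its start-site group, in percent, for the 14 named called groups in which each isoform reached 1 FPKM in both conditions; dots are libraries, lines the mean and bars the SD of 4 libraries, with IL-4 at the left and untreated at the right of each group. The 4 IL-4 dots and the 4 untreated dots do not overlap in any of the 14 groups.

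Alternative acceptors and donors move one edge of an exon, often by few bases. Of 196 acceptor pairs, 108 differed by 3 nt, the step of a single codon, and 1 of these 108 was called. The longer form of the 3-nt pairs had a median share of 56.8% with IL-4 and 53.5% in untreated cells, and their median absolute difference was 2.38 points. Over all 196 acceptor pairs the share of the longer form differed by a median of 0.208 points. Its median share ran from 52.8% to 56% over the IL-4 libraries and from 51% to 53% over the untreated libraries. These ranges overlapped, and the IL-4 library was lower in 1 of the 4 same-numbered pairs. Calls were made in 5 acceptor pairs (2.55%) and in 3 donor pairs (4.11%), and in those 3 donor pairs the longer form fell.

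The called 3-nt pair is TSS7875 on chromosome 11 (mm9, 94204609 to 94254290, minus strand). The longer form TCONS_00014438 held 97.4%, 91.8%, 91.6% and 78.4% with IL-4, against 62.6%, 65.9%, 66.3% and 60.2% in untreated cells. The shorter form TCONS_00014437 had 0.0565 to 0.464 FPKM over the IL-4 libraries and 3.6 to 5.06 FPKM over the untreated libraries, and so entered through the untreated libraries only. The locus fell by 2.55 in log2 counts (SE 0.16). The call (limma adjusted p = 0.0456) was lost with the block (0.107) and in 6 of the 8 fits that left out a library (highest adjusted p = 0.116).

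TSS8294 and TSS49540 are abundant groups in which an isoform without a coding-sequence identifier lost share. In TSS8294 on chromosome 11 (mm9, 114858083 to 114863194, minus strand) that isoform, TCONS_00015245, uses an acceptor 88 nt upstream and held 22.5%, 18.3%, 19.5% and 21.7% with IL-4, against 30.6%, 29.3%, 29.3% and 31.1% in untreated cells. In level it fell by 0.29 on the log2 FPKM scale (SE 0.07) while its coding partner TCONS_00015244 rose by 0.45 ± 0.07. The call (limma adjusted p = 0.0165) was lost with the block (0.0962), without IL-4 replicate 3 (0.0518) and without untreated replicate 4 (0.0556).

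In TSS49540 on chromosome X (mm9, 151647682 to 151650952, minus strand) the isoform without an identifier, TCONS_00088802, has an exon longer by 480 nt. It held 7.77%, 7.07%, 8.38% and 8.46% with IL-4, against 10.4%, 13.8%, 14% and 14.2% in untreated cells. Its own level differed by 0.17 ± 0.14 (log2 FPKM), which did not pass the test, while the coding form TCONS_00088801 rose by 0.97 ± 0.05. The share call (limma adjusted p = 0.029) was lost with the block (0.107) and in 7 of the 8 fits that left out a library (highest adjusted p = 0.0912).

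TSS44238 on chromosome 8 (mm9, 72534250 to 72566633, minus strand) holds 3 isoforms, of which the one that gained and the one that lost most share have 19 exons each. TCONS_00079319 ends 8502 nt further downstream and lacks 3 nt at a donor, and it held 42.1%, 40%, 40.7% and 41.5% with IL-4, against 24.9%, 20.2%, 24% and 24.3% in untreated cells. TCONS_00079323 held 48.8% ± 1.98 with IL-4 and 63.2% ± 1.38 in untreated cells (SD, n = 4 each). The 13-exon TCONS_00079324 held 10.1% ± 1.14 with IL-4 and 13.4% ± 1.34 in untreated cells. None of the 3 isoforms overlapped between the groups (limma adjusted p = 0.00561, 0.0574 with the block). The locus counts differed by 0.06 ± 0.06 on the log2 scale, not past the threshold. The distal isoform here is listed with a last exon 8502 nt longer, so its share reflects the end as well as the donor.

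Retained introns between shared splice sites were few, with 2 of 22 pairs called (9.09%). A retained first or last intron, such as that of TSS39766, was counted with the first or last exons and is not among these. The intron-retaining form had the lower mean share with IL-4 in 18 of the 22 pairs and the higher one in 4. Its median share per library was 11.6%, 12%, 15.4% and 13.4% with IL-4, against 13%, 15.2%, 17.9% and 15.9% in untreated cells. The ranges overlapped, and the IL-4 library was lower in each of the 4 same-numbered pairs. TSS28960, a group of 3 isoforms and so not among these pairs, has a retained intron as well. On chromosome 3 (mm9, 90302880 to 90313365, minus strand), the form with the retained 1283-nt stretch, TCONS_00052202, held 50.1%, 52.7%, 50% and 51% with IL-4, against 61.7%, 69.3%, 69.6% and 77.4% in untreated cells. The form with the intron removed, TCONS_00052203, rose by 1.33 ± 0.22 (log2 FPKM). The call (limma adjusted p = 0.0355) was lost with the block (0.107) and in 7 of the 8 fits that left out a library (highest adjusted p = 0.0972), and all exonic bases are shared with an opposite-strand locus.

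TSS21294 on chromosome 18 (mm9, 61264777 to 61336707, minus strand) went the other way. TCONS_00038224, which retains a 96-nt intron, held 70.5%, 63.7%, 57.1% and 66.6% with IL-4, against 40.5%, 36.5%, 36.6% and 34.3% in untreated cells. The other isoform, TCONS_00038222, is an assembled transcript with a last exon that runs 26154 nt further and a length of 31260 nt. That isoform fell by 0.85 on the log2 FPKM scale (SE 0.15), the intron-retaining one rose by 0.68 ± 0.17, and the locus fell by 0.73 in log2 counts (SE 0.06). The call held with the block (limma adjusted p = 0.0423) and in each fit that left out a library, but the isoforms differ both in the intron and in the end, and 25% of the exonic bases are shared with an opposite-strand locus.

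Pairs that differ only in their end were called in 10 of 166 cases, or 6.02%, beside the background of 4.09%. The form with the distal end fell in 9 and rose in 1. In 5 of the 10 an isoform entered through 1 condition only, and among the other 5 the distal form fell in 4 and rose in 1. Over all 166 pairs the distal form had the lower mean share with IL-4 in 104 and the higher one in 62. Its median share per library was 25.9%, 28.3%, 29.5% and 28.3% with IL-4, against 27.3%, 28.6%, 32% and 30.1% in untreated cells. The ranges overlapped, and the IL-4 library was lower in each of the 4 same-numbered pairs. The ends lay a median of 3286 nt apart, and in all 10 called pairs the distal form is the assembled one.

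TSS48366 on chromosome X (mm9, 72341193 to 72359853, plus strand) had the largest such shift after TSS22115, which is given below. Both isoforms have 15 exons and the same coding-sequence identifier, and the distal one, TCONS_00086610, runs 4738 nt further. It had 0.893, 0.809, 0.99 and 0.888 FPKM with IL-4, against 1.6, 2.09, 2.36 and 2.02 FPKM in untreated cells. The proximal form, TCONS_00086609, had 3.84, 3.77, 3.57 and 3 FPKM with IL-4, against 1.83, 2.73, 2.11 and 1.52 FPKM in untreated cells. Neither isoform overlapped between the groups: the distal share was 20.3% ± 2.42 with IL-4 and 50% ± 6.17 in untreated cells (SD, n = 4 each, limma adjusted p = 0.0024, 0.0149 with the block). The locus differed by -0.23 ± 0.11 in log2 counts, not past the threshold. The distal form lies just under 1 FPKM in the IL-4 libraries, so it entered through the untreated ones, and 23.4% of the exonic bases are shared with an opposite-strand locus.

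TSS27875 on chromosome 3 (mm9, 87847027 to 87862441, plus strand) has ends 2527 nt apart in an 8-exon transcript. The distal form TCONS_00050042 held 23.8%, 29%, 24% and 30.7% with IL-4, against 43.6%, 40.9%, 52.2% and 44.9% in untreated cells. Its locus differed by -0.04 ± 0.09 in log2 counts. The call (limma adjusted p = 0.0165) was lost with the block (0.107), without IL-4 replicate 3 (0.0518) and without untreated replicate 4 (0.0524). The distal form reached 1 FPKM in untreated libraries only and entered through them, and 21.7% of the exonic bases are shared with an opposite-strand locus.

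TSS46635 on chromosome 9 (mm9, 43950940 to 44042144, minus strand) holds 3 isoforms, and TCONS_00083756 and TCONS_00083758 have the same proximal end. The proximal form of a 16-exon pair with ends 6405 nt apart, TCONS_00083756, held 39.2%, 23.4%, 28.5% and 43.6% with IL-4, against 59.8%, 64.3%, 57.3% and 69.3% in untreated cells. TCONS_00083758, which skips a 132-nt exon, held 23.2% ± 3.34 with IL-4 and 10% ± 7.6 in untreated cells (SD, n = 4 each). Its level rose by 1.6 ± 0.42 (log2 FPKM) and reached 1 FPKM in IL-4 libraries only. The distal form TCONS_00083749 held 43.1% ± 10.4 with IL-4 and 27.3% ± 11.5 in untreated cells, with overlapping shares. The call (limma adjusted p = 0.0479) was lost with the block (0.107) and in 7 of the 8 fits that left out a library (highest adjusted p = 0.13). With shares taken among all transcripts of the start site, the difference of TCONS_00083756 was -17.3 points in place of -29 points and the call was lost (0.0511).

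TSS22115 on chromosome 19 (mm9, 29485392 to 29551554, plus strand) belongs to the locus with the largest rise among the named groups, 5.96 ± 0.2 in log2 counts. The distal form TCONS_00039556 held 26%, 28.1%, 26.7% and 30.1% with IL-4, against 46%, 57.9%, 100% and 100% in untreated cells. The untreated shares rest on a summed level of 0.102 FPKM on average, both isoforms entered through the IL-4 libraries, and 34.9% of the exonic bases are shared with an opposite-strand locus. The call (limma adjusted p = 0.0112) was lost with the block (0.0532), at a pseudocount of 0.01 (0.111) and on the arcsine scale (0.119).

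**Figure D4:**
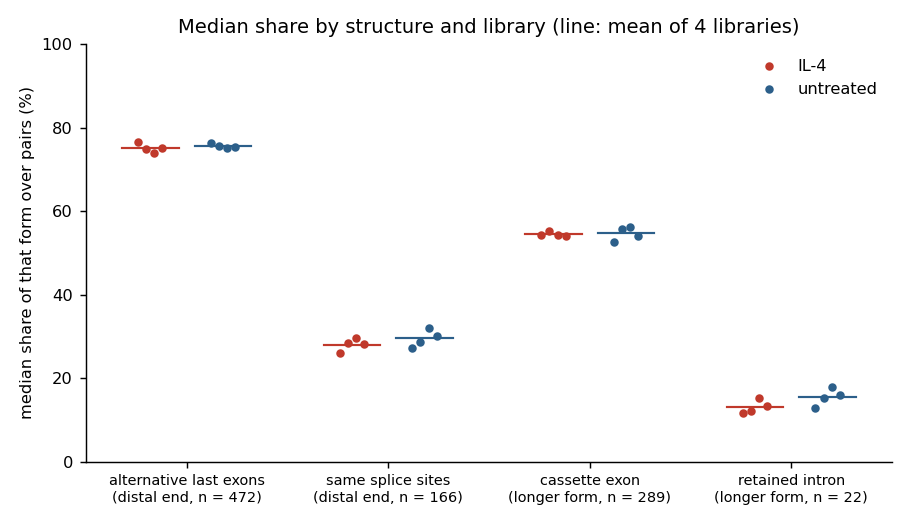
Median share of 1 form over the pairs of a structure class, in percent, for each library; the distal end is plotted for alternative last exons (472 pairs) and same splice sites (166), and the longer form for cassette exons (289) and retained introns (22), with IL-4 at the left and untreated at the right. The ranges of the 4 IL-4 and the 4 untreated libraries overlap in each of the 4 classes; within same-numbered pairs the IL-4 value is lower in 4 of 4 for same splice sites and for retained introns.

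Alternative first exons after one start site arise where the first exon ends at different donors or where nearby starts were given one identifier. They were called in 6 of 202 pairs, or 2.97%. The strongest was TSS3929 on chromosome 10 (mm9, 128227966 to 128237880, plus strand), a pair of 9-exon isoforms with different coding-sequence identifiers whose listed starts lie 43 nt apart. TCONS_00007155, with the longer first exon, had 132, 152, 165 and 127 FPKM with IL-4, against 2.89, 2.88, 2.8 and 3.28 FPKM in untreated cells. TCONS_00007154 had 12.5, 12.4, 11.1 and 8.99 FPKM with IL-4, against 5.16, 3.89, 4.68 and 4.22 FPKM in untreated cells. Both rose, by 5.55 ± 0.09 and 1.3 ± 0.13 (log2 FPKM), and the locus rose by 4.31 ± 0.1 in log2 counts. The share of TCONS_00007154 was 7.27% ± 1.07 with IL-4 and 60.1% ± 3.85 in untreated cells (SD, n = 4 each, limma adjusted p = 1.39e-05, 0.00266 with the block). The main isoform thus changed at a locus that was also strongly induced. An opposite-strand locus shares 61.4% of the exonic bases.

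TSS183 on chromosome 1 (mm9, 40380886 to 40424465, plus strand) is an 11-exon pair whose first exons differ by 70 nt at the donor and which share a coding-sequence identifier. The shorter form TCONS_00000347 had 2.85, 2.91, 2.63 and 3.76 FPKM with IL-4 and was under 0.01 FPKM in each untreated library. The longer form TCONS_00000348 had 2.83, 2.45, 2.86 and 1.73 FPKM with IL-4, against 0.293, 0.312, 0.202 and 0.26 FPKM in untreated cells. The locus rose by 4.32 ± 0.08 in log2 counts. The share call (limma adjusted p = 0.00562) was lost at a pseudocount of 1 (0.114) and with the block (0.0529), and both isoforms entered through the IL-4 libraries.

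**Figure D5:**
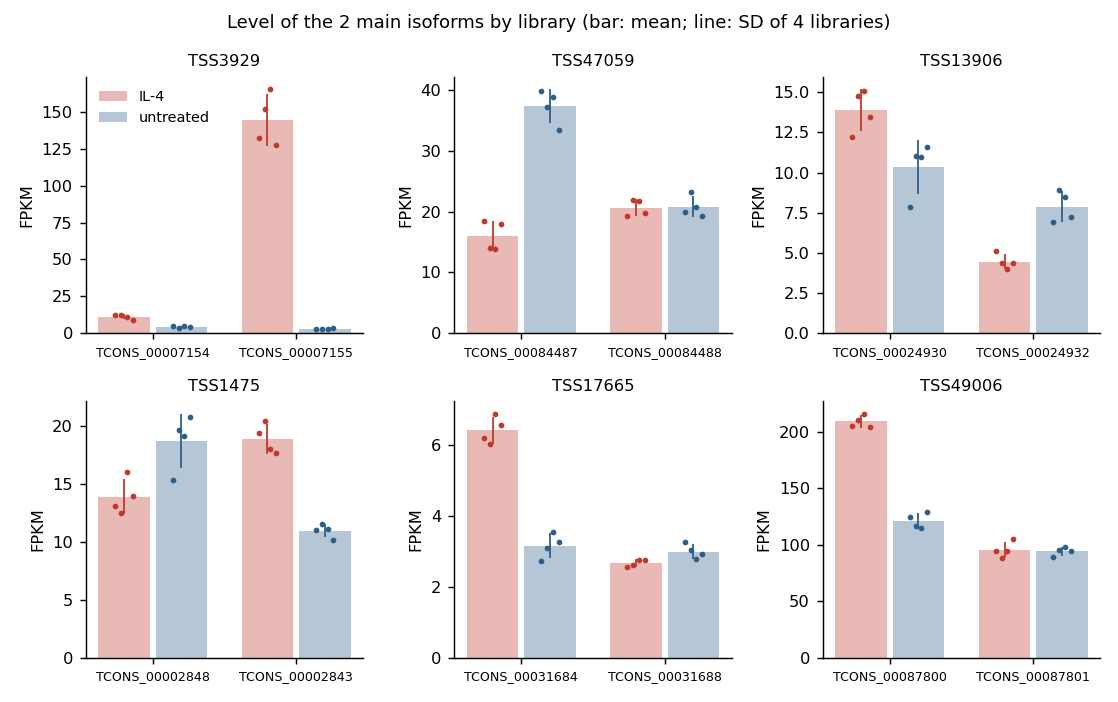
FPKM of the 2 main isoforms of 6 called groups; bars are means of 4 libraries, lines the SD and dots the libraries, with IL-4 at the left and untreated at the right of each isoform. In TSS47059, TSS17665 and TSS49006 the 4 IL-4 dots of 1 isoform lie apart from the untreated ones while those of the other isoform overlap or nearly do.

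Whether the isoforms code for the same protein could be read from the coding-sequence identifiers. They were different in 1136 pairs, of which 38 were called (3.35%), and the same in 461 pairs, of which 15 were called (3.25%). In 138 pairs 1 isoform had no such identifier, and 12 of these were called (8.7%), beside 3.74% over all 1737 pairs. Whether these rates differ was not tested. In the 12 called pairs the isoform without an identifier was lower with IL-4 in 8 and higher in 4. The median share of the isoform without an identifier over the 138 pairs was 21.6% with IL-4 and 22.8% in untreated cells. Its mean share was lower in 78 pairs and higher in 59. The most abundant called group, TSS24565 on chromosome 2 (mm9, 121973423 to 121978818, plus strand), is of this kind. Its 4-exon coding form TCONS_00043929 had 1591 to 1873 FPKM over the IL-4 libraries and 2012 to 2539 FPKM over the untreated libraries, and the unspliced form TCONS_00043930 had 5.03, 3.59, 4.2 and 4.46 FPKM with IL-4, against 11, 10.7, 9.84 and 10.5 FPKM in untreated cells. The unspliced form was 0.256% ± 0.0427 of the group with IL-4 and 0.456% ± 0.0598 in untreated cells (SD, n = 4 each, limma adjusted p = 0.0496). The call was lost with the block (0.107) and in each of the 8 fits that left out a library (highest adjusted p = 0.144).

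The 3 most abundant groups without a call had share differences of at most 1.65 points. TSS28080 on chromosome 3 (mm9, 95330708 to 95360325, plus strand) has a 3-nt acceptor choice, and its main isoform TCONS_00050463 held 87.2% ± 0.254 with IL-4 and 88.9% ± 0.243 in untreated cells (SD, n = 4 each). Those shares do not overlap, and the limma adjusted p was 0.235, or 0.0451 and past the threshold with no filter on FPKM, while the locus rose by 0.62 ± 0.11 in log2 counts. TSS3033 on chromosome 10 (mm9, 59740376 to 59765348, plus strand) also has a 3-nt acceptor choice, and the shorter form TCONS_00005637 held 7.52% ± 0.0678 with IL-4 and 7.68% ± 0.294 in untreated cells (SD, n = 4 each, adjusted p = 0.915). Its locus rose by 0.89 ± 0.11 in log2 counts. TSS42407 on chromosome 7 (mm9, 149561821 to 149573775, minus strand) has donors 18 nt apart, and the form with the shorter exon, TCONS_00076032, held 0.0594% ± 0.0143 with IL-4 and 0.045% ± 0.00321 in untreated cells (SD, n = 4 each, adjusted p = 0.381). Its locus differed by -0.41 ± 0.16 in log2 counts, just past the threshold (edgeR adjusted p = 0.0494). That result did not hold in 7 of the 8 fits that left out a library (highest adjusted p = 0.15). With the replicate block it was past the threshold (edgeR adjusted p = 0.0132).

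The loci of the groups moved with IL-4 about as often as others. Of 2009 loci tested, 546 rose (27.2%) and 494 fell (24.6%), beside a background of 25.6% and 26.2% over all 13761 loci tested. These counts, like the locus values above, come from the fit without the replicate block. With the block 1182 of the 2009 loci were past the threshold, in place of 1040. Of the 85 called groups, 79 lay in tested loci, of which 30 rose, 23 fell and 26 were not past the threshold. With the block 63 of the 79 were past it. A shift of shares thus occurred with and without a called change of the total, and less often without one when the block was used. At the level of isoforms 851 rose (17.3%) and 841 fell (17.1%), beside backgrounds of 19.8% and 18.5% over all 17500 transcripts tested. Within the called groups, 23 had an isoform that rose and another that fell, 33 had only isoforms that rose and 29 only isoforms that fell, as far as the isoforms passed the test. Opposite changes were present in 37 of all 2170 groups, 14 of them without a share call. The calls rest on the ratio between the same isoforms, so opposite changes are favoured among called groups. No background over all start-site groups is given for these counts. In 1049 of the groups without a share call no isoform passed the level test.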

How the data were processed

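RNA-seq of 8 libraries was used, 4 with IL-4 and 4 untreated. The authors deposited whole-number counts per merged locus, FPKM per transcript and a merged annotation; the submitters' processing notes name CASAVA 1.8.2, TopHat2 2.0.9, Cufflinks 2.1.1, HTSeq and mm9, without settings. Depth behind a single FPKM is unknown.

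Isoform shares are the percent of the summed FPKM of the kept isoforms of a start site. The share test used limma 3.58.1 in R 4.3.3 with a variance trend, on log2((FPKM + 0.1)/(rest of the group + 0.1)), 1 row per pair or 1 per isoform of larger groups, a Simes p per group, and Benjamini-Hochberg adjustment over all 3055 groups. Isoform levels were tested with limma on log2(FPKM + 0.1) for 17500 transcripts at 1 FPKM or more in at least 4 libraries, a scale that understates changes of low isoforms. Locus counts were tested with edgeR 4.0.16 (TMM, default filter, quasi-likelihood, 13761 loci); DESeq2 1.42.0 was an alternative. The threshold was an adjusted p of 0.05, and standard errors come from the fits. Both FPKM tests and the edgeR test were run on simulated data. Isoforms were drawn independently there, so errors shared between isoforms of a group were not covered.

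FPKM of isoforms that share most exons are estimates of how reads divide between them, and an error in one isoform appears in the other with the opposite sign. Structure was read from the merged exons, for larger groups between the isoform that gained most and the one that lost most share. Values under 0.01 FPKM are given as such, since the deposited FPKM near 0 are rarely exactly 0.

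Replicate numbers come from the titles. Deviations from group means of same-numbered libraries correlated at 0.39, 0.148, 0.225 and 0.177 for log2 CPM of loci, which was taken as pairing; for log2 isoform ratios they correlated at 0.0477, 0.0598, 0.0128 and -0.0149. The titles do not say what a number stands for.

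Named groups were the 20 called groups with the largest non-overlapping share difference, the 5 of highest level, up to 5 whose main isoform changed, and the 3 most abundant groups not called; some met several parts. Members, lists and tests were chosen with earlier results of these data known. A list of 126 gene symbols could not be used, because 0 identifiers matched.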

Additional observations from a re-analysis of the deposited data

Results flagged for a closer look

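The share of the isoform that differed most was checked in the 56 sets of 4 libraries of the named groups for 1 library far from the other 3 (a gap above Dixon's 95% critical value). Chance marks about 1 in 20 sets, and 7 were marked. In TSS39766, TCONS_00071343 was highest in IL-4 replicate 3, at 68.2% where the other IL-4 libraries had 59.5% to 60.6%, and in untreated replicate 3, at 22.4% where the others had at most 1.86%. In TSS39788, TCONS_00071392 was likewise highest in IL-4 replicate 3, at 57.4% where the others had 46.2% to 46.6%, and in untreated replicate 3, at 2.14e-12%, a value that stands for 0 as do the other untreated ones. In TSS183, TCONS_00000347 was highest in untreated replicate 3 at 0.18%, where the others had at most 0.011%. In TSS49540, TCONS_00088802 was lowest in untreated replicate 1 at 10.4%, where the others had 13.8% to 14.2%. In TSS3033, TCONS_00005637 was lowest in untreated replicate 1 at 7.24%, where the others had 7.8% to 7.87%.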

How the results depend on the processing

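The count of 85 share shifts moved by over 1.5 times under 6 alternatives beside those that leave out a library: 163 at a pseudocount of 1, 739 of 9422 groups with no filter on FPKM, 160 with diffSplice (79 of them among the 85), 13 with the replicate block, 12 without both replicate 4 libraries and 47 when a difference of 10 points was also required. The fits that leave out 1 library gave 41 to 84. The other alternatives gave 63 to 106, among them 81 of 542 groups at 5 FPKM or more in at least 4 libraries (14.9%), 106 of 1368 groups at 1 FPKM or more in all 8 libraries (7.75%), 63 of 2038 groups kept in both conditions and 74 of 2003 groups with no isoform under 0.01 FPKM, both added after the data were seen. The cause of these changes was not tested, beyond the smaller number of samples or groups. No share difference of the 25 named called groups changed direction; 15 kept the call without any single library. With the replicate block 6 kept it (TSS7967, TSS3929, TSS39788, TSS48366, TSS21294 and TSS27760), and the other 19 had adjusted p-values (limma) of 0.0529 to 0.134. Without both replicate 4 libraries 6 kept it as well, with TSS183 in place of TSS21294. Counts of isoform levels and loci past the threshold stayed within 1.5 times of the values given. The log2 fold change of the counts of XLOC_008536, the locus of TSS13906, ran from -0.0833 (without untreated replicate 1) to 0.0397 when single libraries were left out and turned to -0.00135 without IL-4 replicate 2, and that of XLOC_017269, the locus of TSS27875, ran from -0.0773 to 0.0135 (without IL-4 replicate 2); neither is past the threshold in any of these fits. The share of groups called thus differed with the level filter, and the part of depth in this was not tested.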
